A study of Mus musculus with 8 samples.

Results

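Genes of the TGF-beta, BMP and Wnt pathways were examined in hearts of neonatal C57BL mice, wildtype or null for connexin43. They were chosen by name: probes with a single gene symbol belonging to the Tgfb, Bmp, Smad, Acvr, Wnt, Fzd, Dkk, Sfrp, Lrp5 or Lrp6, Dvl, Axin, follistatin, Ltbp or Tcf7 families. The array carried 99 such probes for 50 symbols, and 35 genes were measured, which here means values from 3 or more wildtype pools and from 3 or more null pools, out of 11804 features measured to that limit. The 50 symbols held no Dvl gene and no Lrp6. Each of 8 arrays had been hybridised with cDNA of 3 pooled hearts and with a common reference of adult mouse tissues, with 4 pools of each genotype. Each value is a log2 ratio, heart divided by reference, and 0 is the median spot of an array. The labels give no allele, sex or exact age, and hearts were pooled, so that the spread is between pools and not between single animals. In whole hearts, fewer cells of a type and less RNA per cell cannot be told apart.

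TGF-beta and BMP ligands are secreted proteins that bring together type I and type II receptor kinases at the cell surface. The receptors phosphorylate Smad proteins, which join Smad4 and enter the nucleus, while follistatin, latent binding proteins and the inhibitory Smads hold the signal back or shape it. Wnt ligands bind Frizzled receptors with the co-receptors Lrp5 and Lrp6, act through Dvl proteins, and free beta-catenin from an Axin complex so that it can work with Tcf factors. In the embryo these pathways form the valves, the outflow tract and the connective tissue of the heart. Connexin43, encoded by Gja1, is the main gap junction protein of working heart muscle.

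The deleted gene separated the genotypes. The log2 ratio of Gja1 was 1.04, 1.31, 0.99 and 0.79 on the wildtype arrays and -0.29, 0.25, 0.12 and 0.22 on the null arrays, with no overlap (exact two-sided permutation p = 0.0286, the smallest that 70 assignments of the arrays allow). The difference was -0.95 (SE 0.15, adjusted p = 0.340 in limma) on the 1 probe of Gja1, whose position against the deletion was not given, so that it may check nothing about the labels. Arrays had values at 12971 to 23929 of 28704 spots, and their number limits the precision. Wildtype replicate 1 had the fewest values, and its rank correlation with the others had the lowest median (0.576), followed by null replicate 1 (0.663), against 0.669 to 0.792 for the rest. Of 10 heart muscle markers 3 were measured, Pln, Nppa and Myl7, all above 0 on every array; since the sign of the ratio was itself set with heart muscle probes, this does not check the labelled tissue.

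The first question was how these genes stood in the neonatal heart of both genotypes relative to the adult tissue pool. Of the 35 genes 13 were above the array median on every array that measured them, against 19.1% of all features, which makes 37.1% of these genes. Below the median on every array were 3 genes, or 8.57%, against 17.6% of all features. Without centring of the arrays both counts were 5, with 6.62% and 25.4% of all features, so the shares move with the point taken as 0 while the members above remained a larger share than all features. These ratios carry dye effects and the age difference to the reference, which cannot be told apart from the tissue, and they describe each gene against its own reference signal.

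**Figure D1:**
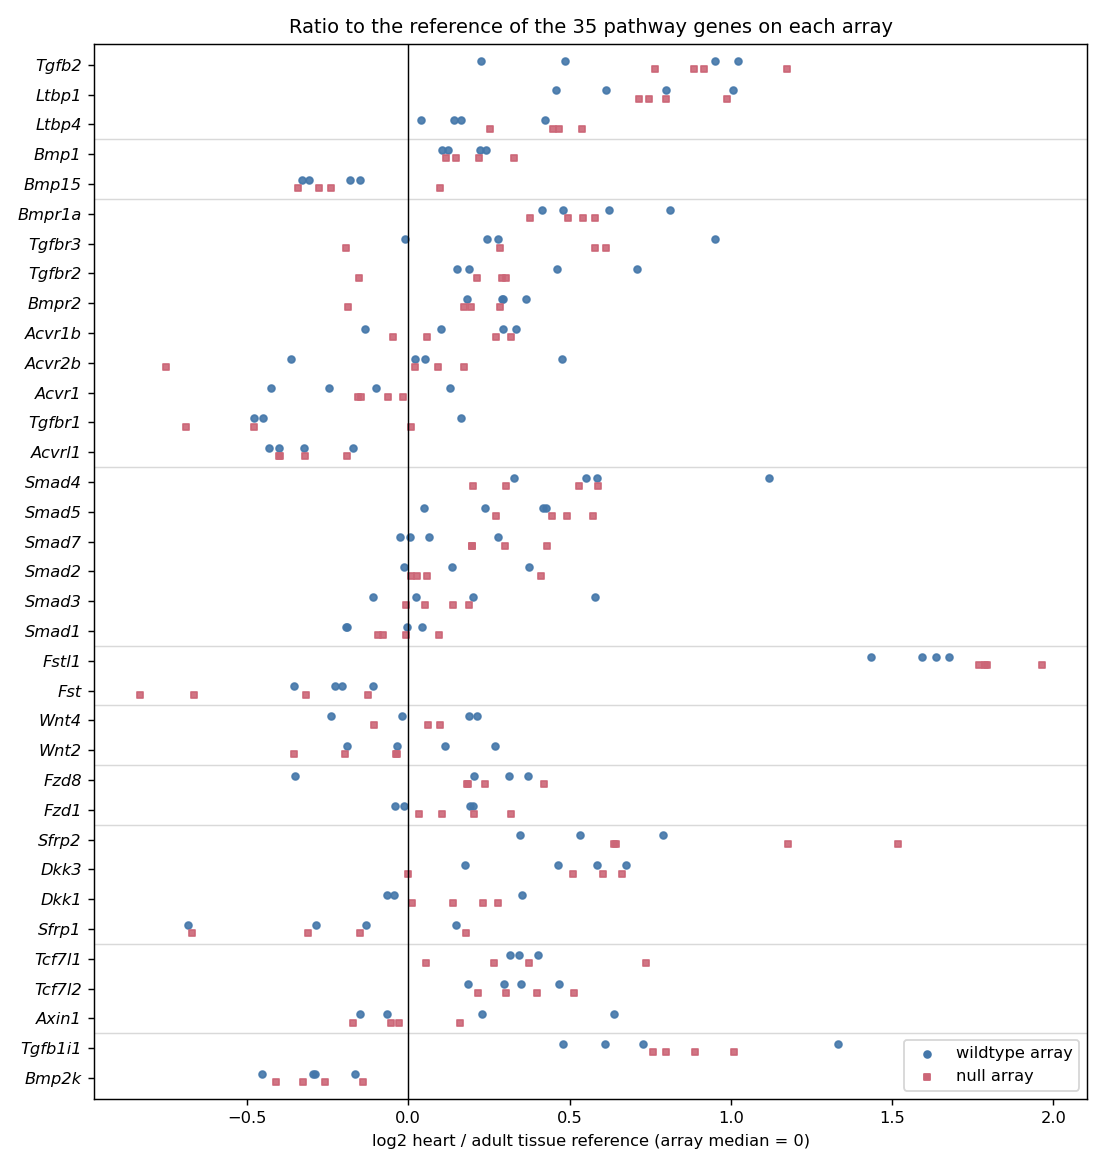
Log2 ratio of heart over adult tissue reference (horizontal axis, 0 is the array median) for the 35 measured genes, grouped by role between the grey lines, with circles for single wildtype arrays and squares for single null arrays. Fstl1 lies furthest to the right on all 8 arrays, from 1.43 to 1.97, and in most genes the circles and squares intermingle.

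Between the genotypes no gene of these pathways passed the test. In the limma fit 0 of the 35 genes had an adjusted p under 0.05, in either direction, where 0 of 11804 features (0.0%) did. At an unadjusted p under 0.05 there was 1 gene, Fstl1, with a higher value in null hearts, or 2.86% of the genes, against 8.23% of all features (2.1% higher and 6.13% lower). Fstl1 was also the 1 gene whose genotypes did not overlap, where 7.54% of all features did not. The median log2 difference, null minus wildtype, was 0.0051 over the 35 genes and -0.04 over all features. The median size of the difference regardless of sign was 0.08 for the genes and 0.12 for all features, with median standard errors of 0.14 for both.

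The intervals say how large a difference these arrays leave room for. For all 35 genes the 95% interval of the difference lay between -1 and 1 on the log2 scale, as it did for 96.5% of all features. It lay between -0.5 and 0.5 for 26 genes, or 74.3%, against 63.1% of all features. Higher values in null hearts were found for 20 genes and lower values for 15, or 57.1% higher, against 40.9% of all features. Without centring, 7 were higher and 28 lower, and 15.0% of all features were higher. The median of all features was then -0.18 and that of the genes -0.13. Counts of higher and lower genes given below can be read against these shares. Of the 27 genes beyond the 8 with the smallest p-values, 25 had a difference of the other sign under at least 1 alternative setting or left-out array, so a sign given for one of them is the direction of its means only. Relative to all features the genes' median stood 0.04 higher with centring and 0.05 higher without.

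**Figure D2:**
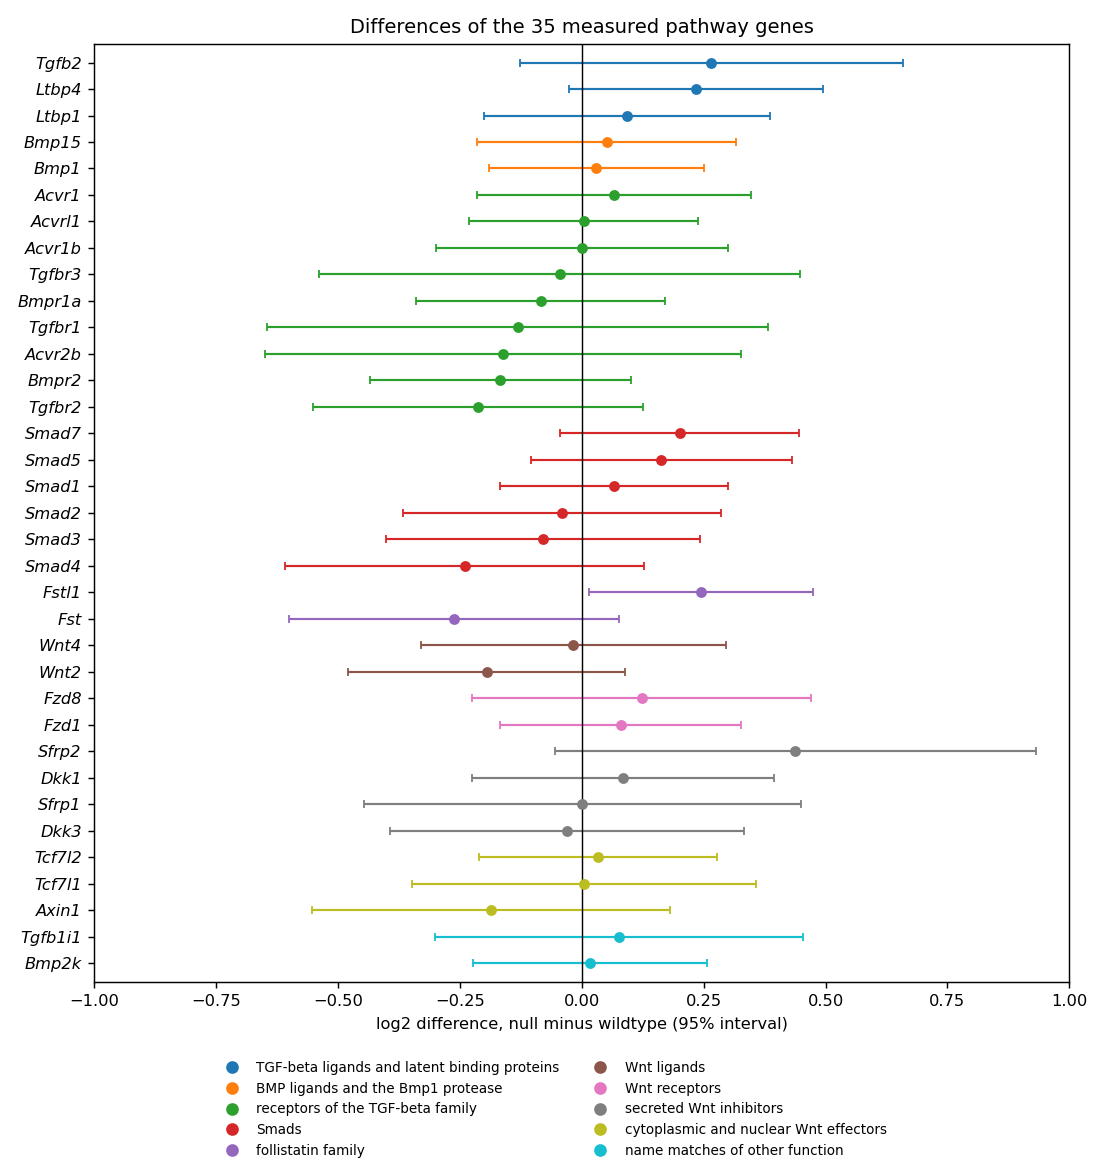
Log2 difference between null and wildtype hearts (horizontal axis) with its 95% interval from limma for the 35 measured genes, coloured by role. The interval of Fstl1, 0.01 to 0.47, excludes 0, and that of each other gene includes it, with the widest reach for Sfrp2, up to 0.93.

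Among TGF-beta ligands and latent binding proteins the null mean was above the wildtype mean for all 3 measured genes, by 0.09 to 0.27, though without centring Ltbp1 had -0.07. Tgfb2, the TGF-beta ligand of the outflow tract and valve cushions, had log2 ratios of 0.48, 1.02, 0.23 and 0.95 on the wildtype arrays and 0.92, 0.89, 1.17 and 0.77 on the null arrays. Wildtype replicates 1 and 3 were low, and replicates 2 and 4 lay within the range of the null arrays. The means were 0.67 ± 0.38 and 0.94 ± 0.17 (SD, n = 4 each), a difference of 0.27 (SE 0.18, adjusted p = 0.692 in limma). All 4 probes of Tgfb2 had a higher mean in null hearts, by 0.63, 0.03, 0.18 and 0.08, and the largest of these rested on 1 value, -0.97 on wildtype replicate 3. Without that array the difference of Tgfb2 was 0.08, and on the probe with values on all 8 arrays it was 0.03.

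Ltbp4, which encodes a latent TGF-beta binding protein of elastic fibres, read 0.43, 0.16, 0.04 and 0.14 in wildtype and 0.54, 0.45, 0.25 and 0.47 in null hearts. All 4 null values were above 3 of the wildtype values, and wildtype replicate 1 overlapped with them. The difference was 0.23 (SE 0.12, adjusted p = 0.607 in limma), and 0.05 when a further probe with fewer values was averaged in. Ltbp1, which encodes a related protein that anchors latent TGF-beta in the matrix, had ratios of 0.46 to 1.01 in wildtype and 0.72 to 0.99 in null hearts, with a difference of 0.09 (SE 0.13). All 3 genes were above the array median on all 8 arrays.

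BMP ligands were sparsely measured. Bmp4 had no value on any array and Bmp5 lacked a probe with enough values. Bmp15, known as a growth factor of the oocyte, was below 0 on 7 of 8 arrays, with means of -0.24 ± 0.09 in wildtype and -0.19 ± 0.20 in null hearts (SD, n = 4 each). Bmp1, which encodes a protease that processes procollagen and is no ligand of the family, was above 0 on all arrays, at 0.17 ± 0.07 and 0.20 ± 0.09 (SD, n = 4 each). Its 4 probes went both ways, with 2 higher and 2 lower in null hearts. The level above 0 was that of their average. Probe means over the arrays ran from -0.13 to 0.40, and the third probe fell to -0.52 on null replicate 1.

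Receptors of the TGF-beta family were measured for 9 of 10 symbols. The mean of null hearts was below that of wildtype for 7 of them and above it for 2 (median difference -0.08), where 40.9% of all features were higher. Without centring all 9 were lower, and after quantile normalization 6 were. The 7 held Acvr1b, at -0.000042. Without null replicate 1 the differences of Acvr1b, Acvr2b and Tgfbr3 were above 0, at 0.07, 0.05 and 0.13. The other receptors kept their sign without that array. Tgfbr2, the type II receptor that binds TGF-beta, read 0.71, 0.15, 0.19 and 0.46 in wildtype and -0.15, 0.29, 0.21 and 0.30 in null hearts. The ranges overlapped, and null replicate 1 was the 1 array below 0. Its difference was -0.21 (SE 0.15), or -0.11 without null replicate 1, -0.10 without wildtype replicate 1 and 0.0030 without both.

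Bmpr2, the type II receptor for BMPs, showed the same array apart, with 0.29, 0.36, 0.18 and 0.29 in wildtype against -0.19, 0.19, 0.17 and 0.28 in null hearts, and a difference of -0.17 (SE 0.12), or -0.07 without null replicate 1. Acvr2b, a type II receptor for activins, was at -0.75 on null replicate 1 and at 0.02 to 0.17 on the other null arrays. Its difference was -0.16 (SE 0.22), and 0.05 without null replicate 1. Null replicate 1 was also the lowest of all arrays for Tgfbr3, the co-receptor betaglycan, at -0.19. Without that array the difference of Tgfbr3 was 0.13, against -0.05 with it.

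Among the type I receptors, Bmpr1a, a type I receptor for BMPs, was above the array median on all 8 arrays, at 0.58 ± 0.18 in wildtype and 0.50 ± 0.09 in null hearts (SD, n = 4 each), and its 3 probes all gave lower means in null hearts. Acvrl1, the ALK1 receptor of blood vessel lining, was below the median on all 8, at -0.33 ± 0.12 and -0.33 ± 0.10 (SD, n = 4 each), with an interval of the difference from -0.23 to 0.24. Acvr1 had a difference of 0.07 (SE 0.13) and Acvr1b of -0.000042 (SE 0.14). Tgfbr1, which pairs with Tgfbr2, had values on 3 arrays of each genotype, with a difference of -0.13 (SE 0.23). Tgfbr3, which is no kinase, had -0.05 (SE 0.22).

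All 6 Smad symbols were measured, 3 with higher and 3 with lower values in null hearts. Smad7, an inhibitory Smad that TGF-beta signalling itself induces, read -0.02, 0.28, 0.01 and 0.06 in wildtype and 0.30, 0.43, 0.20 and 0.20 in null hearts. Wildtype replicate 2 lay among the null arrays and the other 3 lay below all of them. The means were 0.08 ± 0.14 and 0.28 ± 0.11 (SD, n = 4 each), a difference of 0.20 (SE 0.11, adjusted p = 0.628 in limma), and 0.04 without centring.

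Smad4, the common partner of the receptor-activated Smads, read 1.12, 0.55, 0.33 and 0.58 in wildtype and 0.20, 0.59, 0.30 and 0.53 in null hearts. Wildtype replicate 1 alone was above all null arrays. Its difference was -0.24 (SE 0.17, adjusted p = 0.699 in limma) with that array and -0.08 without it. Smad5, a BMP-activated Smad, had ratios above 0 on all 8 arrays and a difference of 0.16 (SE 0.12), or 0.0045 without centring and 0.08 without wildtype replicate 4. Smad1, of the same class, had 0.07 (SE 0.11). Smad2 and Smad3, the Smads that TGF-beta activates, had -0.04 (SE 0.15) and -0.08 (SE 0.15).

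The follistatin family held the gene with the smallest p-value. Fstl1, which encodes a secreted glycoprotein made by connective tissue and epicardial cells, read 1.43, 1.59, 1.64 and 1.68 on the wildtype arrays and 1.77, 1.79, 1.97 and 1.79 on the null arrays. With its 2 probes averaged, every null value was above every wildtype value. The means were 1.58 ± 0.11 and 1.83 ± 0.09 (SD, n = 4 each). They differed by 0.24, or 1.18-fold, with SE 0.10 and an adjusted p of 0.590 in limma, rank 786 of the 11804 features by p. Both probes of Fstl1 gave higher means in null hearts, by 0.29 and 0.20. On the first, wildtype replicate 4 at 1.80 lay just below null replicate 1 at 1.81. On the second the genotypes overlapped, with null replicate 4 at 1.61 and wildtype replicate 3 at 1.67. The difference was 0.12 after quantile normalization, 0.11 with arrays scaled to equal spread and 0.09 without centring.

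Markers of other cell types were set beside it, fibroblasts first. Null hearts had the higher mean for all 6 measured markers of 9, by a median of 0.10, where 40.9% of all features were higher. Of these markers 0 passed. Without centring 2 were higher and 4 lower, and 4 were higher after quantile normalization or with equal spread. Over the 4 measured on every array their mean level was 0.28 to 0.87 on wildtype arrays and 0.56 to 0.90 on null arrays. Of 6 epicardial markers 2 were measured, Krt19 at -0.36 (SE 0.19) and Msln at 0.03 (SE 0.19). Null hearts also had the higher mean for all 6 measured erythroid markers, by a median of 0.21, and for 5 of 6 endothelial ones, by 0.15. Without centring these medians were 0.05 and -0.0072. The part of any of these cells in the Fstl1 values was not tested. Fst, which encodes follistatin, the secreted trap for activins, read -0.21, -0.35, -0.11 and -0.23 in wildtype and -0.13, -0.66, -0.83 and -0.32 in null hearts. It was below the median on all arrays, with null replicates 2 and 3 lowest and null replicates 1 and 4 within the wildtype range. Its difference was -0.26 (SE 0.15, adjusted p = 0.645 in limma), or -0.15 without null replicate 3.

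**Figure D3:**
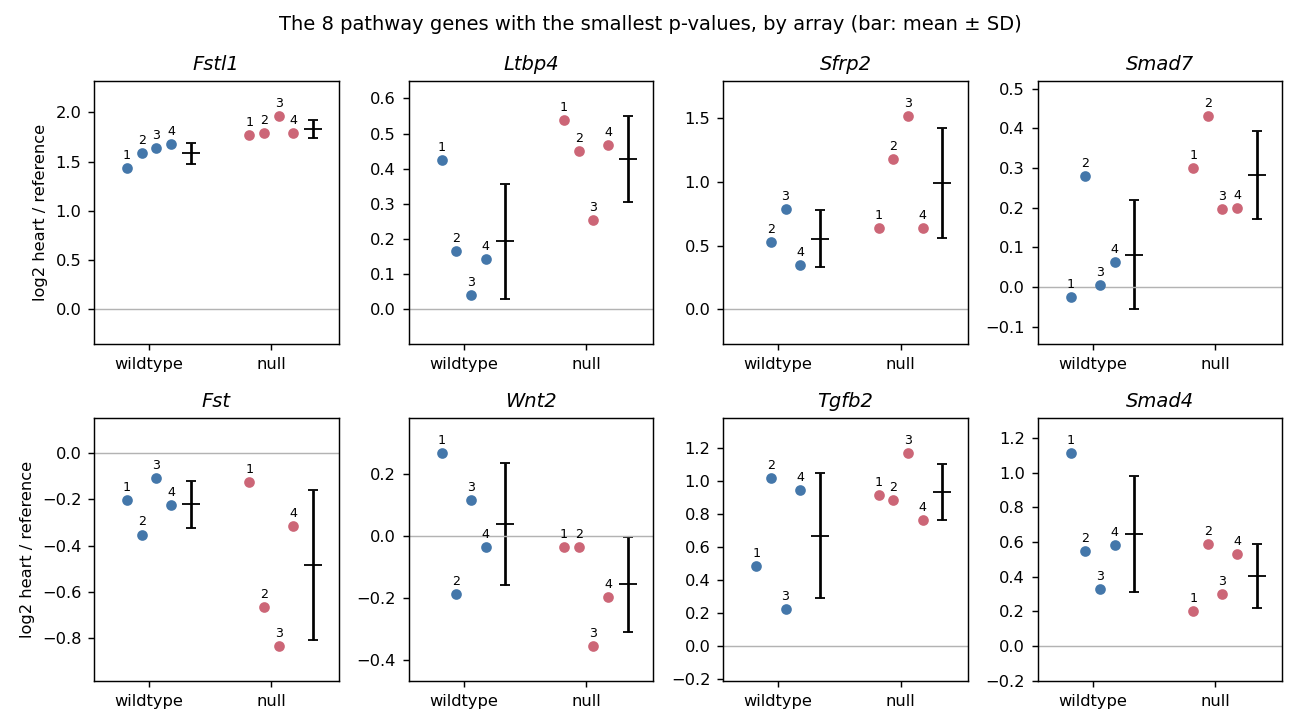
Log2 ratio of heart over reference (vertical axis, a scale of its own in each panel) on each array, numbered by replicate, for the 8 genes with the smallest p-values, with the mean and SD of each genotype as a bar. In Fstl1 the null arrays, from 1.77 to 1.97, all lie above the wildtype arrays, from 1.43 to 1.68, while in the other 7 genes the genotypes overlap.

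The upstream sequences of 3 genes are shown because of their place in these results. Fstl1 is the gene without overlap in the centred values, Sfrp2 the one with the largest difference, and Tgfb2 the ligand with 4 probes. The sequences are the 250 bases before the annotated start in RefSeq on GRCm38.p6, written 5′ to 3′ on the strand of the gene. The Fstl1 window is chr16:37776805-37777054 on the plus strand, that of Sfrp2 chr3:83766071-83766320 on the plus strand, and that of Tgfb2 chr1:186705990-186706239 on the minus strand. Capitals mark matches to 3 motifs that do not overlap each other in these windows.
Fstl1: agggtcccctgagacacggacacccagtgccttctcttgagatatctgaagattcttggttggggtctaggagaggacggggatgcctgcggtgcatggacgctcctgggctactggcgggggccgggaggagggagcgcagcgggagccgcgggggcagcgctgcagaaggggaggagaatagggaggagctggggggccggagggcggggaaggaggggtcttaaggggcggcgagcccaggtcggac
Sfrp2: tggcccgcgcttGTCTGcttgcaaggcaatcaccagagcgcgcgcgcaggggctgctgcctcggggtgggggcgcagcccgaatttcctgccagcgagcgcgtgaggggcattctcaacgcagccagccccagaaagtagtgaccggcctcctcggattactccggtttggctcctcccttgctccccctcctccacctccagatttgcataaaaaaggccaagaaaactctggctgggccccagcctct
Tgfb2: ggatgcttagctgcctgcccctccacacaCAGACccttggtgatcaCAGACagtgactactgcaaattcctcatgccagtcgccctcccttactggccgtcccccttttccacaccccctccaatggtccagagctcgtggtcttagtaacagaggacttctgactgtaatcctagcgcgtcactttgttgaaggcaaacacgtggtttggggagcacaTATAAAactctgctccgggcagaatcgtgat

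The motifs searched were CAGAC, the SMAD-binding box, and CTTTGA, the core bound by Tcf and Lef factors, each on both strands, and TATAAA on the strand of the gene. The window of Tgfb2 held CAGAC at 2 places and TATAAA at 1, that of Sfrp2 held the SMAD-binding box at 1 place on the other strand, and that of Fstl1 held 0 matches. Among all 32851 windows of this length 42.2% held CAGAC, 13.8% CTTTGA and 7.59% TATAAA. Of the 35 genes 23 had a window in the table, 30 windows in all, of which 9 held CAGAC, 2 CTTTGA and 3 TATAAA. A match says that the letters are there, and the arrays did not measure binding.

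Of 5 Wnt ligands on the array 2 were measured. Wnt2, a ligand of mesoderm and lung mesenchyme, read 0.27, -0.19, 0.11 and -0.04 in wildtype and -0.04, -0.04, -0.36 and -0.20 in null hearts. The ranges overlapped, with 6 of 8 arrays below 0, and the difference was -0.20 (SE 0.13, adjusted p = 0.686 in limma). It was -0.12 without wildtype replicate 1. All 3 measured lung epithelial markers of 6, Cbr2, Scgb1a1 and Sftpc, had a lower mean in null hearts, with a median difference of -0.63. Of these markers 0 passed. Their median was -0.43 after quantile normalization, -0.48 with equal spread of the arrays and -0.79 without centring. Over the 2 measured on every array the mean level was -2.80 to -2.29 in wildtype and -3.33 to -2.93 in null hearts, and their part in Wnt2 was not tested. Wnt4, a ligand of kidney and gonad formation, had ratios of -0.24 to 0.21 in wildtype and -0.11 to 0.10 in null hearts, with a difference of -0.02 (SE 0.14) over 3 null arrays. Wnt3a, Wnt5a and Wnt5b had values on 1 to 4 arrays in all.

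Of 9 Frizzled and Lrp symbols 2 were measured. Fzd1 had a difference of 0.08 (SE 0.11), with both genotypes between -0.04 and 0.32. Fzd8 had 0.12 (SE 0.16), and its lowest value was -0.35 on wildtype replicate 1, against 0.18 to 0.42 on the other 7 arrays. Both differences were below 0 without centring, at -0.08 and -0.04, and that of Fzd8 was -0.04 without wildtype replicate 1 too. Fzd7 and Lrp5 had no value on any array.

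Secreted Wnt inhibitors were measured for 4 of 4 symbols. Sfrp2, which encodes a decoy that binds Wnt ligands outside the cell, had the largest difference of the 35 genes. It read 0.53, 0.79 and 0.35 on wildtype replicates 2 to 4 and 0.64, 1.18, 1.52 and 0.64 on the null arrays. Null replicates 2 and 3 stood above all wildtype arrays, and null replicates 1 and 4 lay below wildtype replicate 3. The difference was 0.44 (SE 0.22, 1.35-fold, adjusted p = 0.610 in limma), and 0.26 without null replicate 3.

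Sfrp1, a second decoy of the same family, had means of -0.24 ± 0.35 in both genotypes (SD, n = 4 each). Its 3 probes gave unlike values: the first ranged over -0.31 to 0.31, the second over -1.98 to 0.43 and the third over -0.21 to 0.72 across the 8 arrays. The second probe was at -1.98 to -1.27 on 4 arrays, 2 of each genotype. Dkk3, of the Dickkopf family, was above the median on all 8 arrays, with 0.47 ± 0.22 in wildtype and 0.44 ± 0.30 in null hearts (SD, n = 4 each). On null replicate 1 it was barely so, at 0.00048, where its 2 probes read -0.30 and 0.30. Dkk1, which blocks the Wnt co-receptors, had a difference of 0.08 (SE 0.14) over 3 wildtype and 4 null arrays.

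**Figure D4:**
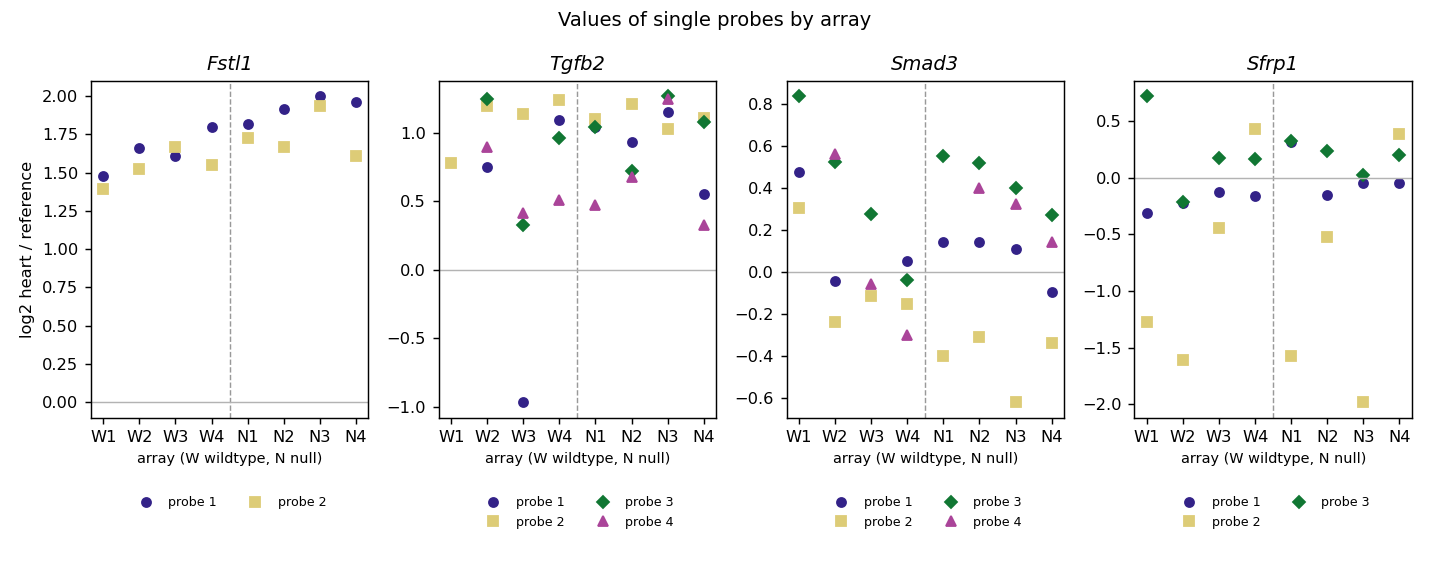
Log2 ratio of heart over reference (vertical axis) of every probe of Fstl1, Tgfb2, Smad3 and Sfrp1 on each array, with W for wildtype and N for null replicates. Both probes of Fstl1 lie between 1.39 and 2.00 on all arrays, 1 probe of Tgfb2 drops to -0.97 on wildtype replicate 3, and 1 probe of Sfrp1 spans -1.98 to 0.43.

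Inside the cell, 3 of 4 symbols of the Wnt pathway were measured. Axin1, the scaffold of the complex that destroys beta-catenin, read 0.64, -0.15, -0.07 and 0.23 in wildtype and -0.17, -0.03, 0.16 and -0.05 in null hearts. Wildtype replicates 1 and 4 were above the null arrays, and the other 2 lay among them. The difference was -0.19 (SE 0.17), or -0.03 without wildtype replicate 1. Tcf7l2 and Tcf7l1, which encode transcription factors that beta-catenin binds, were above the median wherever measured. Their differences were 0.03 (SE 0.11) and 0.0051 (SE 0.16), the latter at -0.07 with equal spread of the arrays and both below 0 without centring. Axin2, often used as a readout of Wnt signalling, had no value on any array.

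A further 2 measured genes fit the naming rule but belong to none of the roles above. Tgfb1i1, which encodes the focal adhesion protein Hic-5, was above the median on all 8 arrays, with a difference of 0.08 (SE 0.17). Of its 3 probes 2 gave 0.32 and 0.34, and the other gave -0.24 with a ratio of 2.03 on wildtype replicate 1. Bmp2k, which encodes a kinase, was below the median on all 8 arrays, at -0.30 ± 0.12 and -0.28 ± 0.11 (SD, n = 4 each).

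Probes of 1 gene often went different ways. Of the 35 genes 14 had several probes, and in 8 of those the probes gave differences of both signs, Smad3, Bmp1, Tgfbr3, Tcf7l1 and Sfrp1 among them. The 4 probes of Smad3 gave -0.09, -0.37, 0.04 and 0.22. All probes pointed one way for Fstl1, Tgfb2, Fzd1, Axin1, Bmpr1a and Bmpr2. Of the 15 symbols without enough values, 4 had none at all, and the others had values on 1 to 7 arrays.

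Other genes of the same pathways, on lists of ligands, regulators and targets, gave no call either. Of 90 such genes measured 0 passed in limma, in either direction, with a median difference of -0.0055. At an unadjusted p under 0.05 there were 2 higher and 6 lower genes, and 8 had genotypes that did not overlap. As shares of the 90 these were 2.22%, 6.67% and 8.89%, near the 2.1%, 6.13% and 7.54% of all features. Among 10 other extracellular genes of the TGF-beta family, with a median of 0.03, or -0.13 without centring, Nbl1, which encodes a BMP antagonist, had -0.45 (SE 0.14) and no overlap, from -0.28 to -0.0043 in wildtype and from -0.88 to -0.36 in null hearts. Gdf10, a BMP-like ligand, had -0.37 (SE 0.28), or -0.08 without wildtype replicate 3. Among 16 intracellular regulators, with a median of 0.02, or -0.14 without centring, Rnf111, a ubiquitin ligase that removes Smad7, had 0.34 (SE 0.16), or 0.17 without null replicate 1. Ppm1a, a phosphatase of Smads, had -0.21 (SE 0.10) over 8 probes.

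Target genes of TGF-beta or BMP signalling were split, with 6 of 12 higher and a median of -0.0036, though 9 were lower without centring. The matrix enzyme gene Loxl2 had 0.45 (SE 0.11), or 0.17 on its probe with the fewest missing values, and the cell cycle inhibitor gene Cdkn1a had -0.43 (SE 0.13), or -0.28 on that probe. Both had genotypes that did not overlap, and their adjusted p-values were 0.483 and 0.550 in limma.

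On the Wnt side, the mean of null hearts was the lower one for 10 of 14 extracellular and membrane genes, and for 9 after quantile normalization. Their median was -0.13, against -0.04 for all features, of which 40.9% were higher in null hearts. Celsr2, a cadherin of planar cell polarity, had -0.60 (SE 0.17) over 3 null arrays. Rnf43, which removes Frizzled receptors from the cell surface, had -0.39 (SE 0.17), or -0.20 without wildtype replicate 1. Of 32 intracellular Wnt genes 15 were higher and 17 lower, with a median of -0.0042, but 29 were lower without centring, and beta-catenin itself, Ctnnb1, had 0.08 (SE 0.12), or -0.081 without centring. The feedback inhibitors Nkd1 and Nkd2 had -0.40 (SE 0.19) and -0.32 (SE 0.19), each over 3 wildtype arrays. Nkd1 had -0.26 without null replicate 3, and Nkd2 had -0.12 without wildtype replicate 4 and -0.06 on its probe with the fewest missing values. Of 10 genes used as Wnt readouts 7 were lower, with a median of -0.06, against -0.04 for all features. Without centring both medians were -0.18. Rnf43, Nkd1 and Dkk1 of this list were also counted above, so it is not a separate set. Myc stood at -0.29 (SE 0.12).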

How the data were processed

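The deposited values are log2 ratios of 2 dyes per spot, with 1 value table for the series. Per the labels, heart cDNA carried Cy3 and the common reference Cy5 on all 8 arrays, so dye effects were shared by both genotypes. For scanner software, background correction and scaling, the method is not given in the sources used. The base of the log was read from the deposited values: differences within blocks of 598 rows equalled a base 2 log of the quotient of 2 integers no larger than 120, to a tolerance of 1.5e-09, for 8347 of 31305626 pairs, against 269 with base e and 863 with base 10. The sign of the ratio is unstated and was taken as heart over reference, since the median of heart muscle marker probes lay above that of liver marker probes on 8 of 8 arrays.

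Of 28704 probes 18511 had 1 symbol in the platform annotation, which can be old. Each array was centred on its median (0.21, -0.10, -0.31 and -0.11 in wildtype, -0.34, -0.28, -0.08 and -0.24 in null hearts as deposited). Probes measured in 3 or more pools of both genotypes were averaged per symbol with an additive model of probe and array. Null minus wildtype was fitted over all 11804 features with lmFit and eBayes in limma 3.58.1 (R 4.3.3), with Benjamini-Hochberg adjustment and a threshold of 0.05. A simulation used the means, spreads and missing values of these 11804 features, independent normal noise and 200 planted changes of 1 size per run. It recovered 5% of changes of 0.5, 84% of changes of 1 and 98% of changes of 2 on the log2 scale. Recovery depends on the number of changes and on the noise. These shares need not hold for the real arrays, where 0 features passed. Tables were made in Python 3.11.15 with pandas 2.3.3 and numpy 2.4.6, and figures with matplotlib 3.10.9.

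The members, lists and tests were chosen with earlier results of these data known. The rule for named genes took Gja1, the 8 members with the smallest p (with each array's value), members called or without overlap, in each role the 3 with the smallest p and those of highest and lowest mean ratio, and in each other list the 2 with the smallest p. Ctnnb1, the remaining members and the per-array values of Tgfbr2, Bmpr2 and Axin1 were added after their values were seen. Alternatives were other centring and scaling, filters, probe rules, limma settings, the replicate number as a block, and each array left out. Same-numbered arrays of the 2 genotypes had deviations from their group means that correlated at -0.24, -0.01, -0.25 and -0.02 over 8238 features, so the numbers were not taken as pairs.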

Additional observations from a re-analysis of the deposited data

Results flagged for a closer look

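In 6 of 83 groups of 4 arrays examined, 1 array lay far from the other 3 by Dixon's criterion, which chance alone exceeds in about 5% of groups. Fstl1 read 1.97 on null replicate 3, against 1.77 to 1.79 on the other null arrays. Acvr2b read -0.75 on null replicate 1, against 0.02 to 0.17. Smad2 read 0.41 on that array, against 0.01 to 0.06. Among genes of the other pathway lists, Cdkn1a read 0.70 on wildtype replicate 4, against 0.29 to 0.31. Rnf111 read 0.73 on null replicate 1, against 0.01 to 0.10, and Rnf43 read 0.84 on wildtype replicate 1, against 0.05 to 0.16.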

How the results depend on the processing

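The number of features and of pathway genes called was 0 under every alternative run, among them array weights, robust eBayes, an adjusted p of 0.10 and each array left out. The 8 genes with the smallest p-values kept their direction in all 143 alternatives computed for them, and the 11 genes that the naming rule took from the other lists in all 194. Both sets were picked from these same arrays for small p-values, so a kept direction is no separate support. Ctnnb1, named outside the naming rule, was at -0.081 without centring. Among the 27 remaining pathway genes the sign differed in 77 of 481 alternatives, over 25 genes. With the replicate number as a block, the count of pathway genes called was 0 and their median difference 0.02. The same-numbered arrays did not deviate together, and no wildtype array correlated best with its own number. The number of pathway genes with an unadjusted p under 0.05 and a higher value in null hearts was 0 without centring and with equal spread, 2 on the probe with the fewest missing values, 3 with single probes and 3 with array weights, and 0 to 2 with 1 array left out. It was 4 without wildtype replicate 1 and null replicate 1 together, a choice made after seeing the data. The number with a lower value was 1 without centring, with probes admitted from 2 arrays per genotype, on the probe with the fewest missing values, with single probes and without those 2 arrays, and 0 to 1 with 1 array left out. The median difference of the genes was -0.13 without centring and -0.01 to 0.04 with 1 array left out. Genes above or below the array median on every array numbered 13 to 15 and 3 to 4 with 1 array left out. On the probe with the fewest missing values they numbered 10 and 3. They numbered 12 and 4 with probes admitted from 2 arrays per genotype, and 17 and 4 without those 2 arrays of lowest rank correlation. Without centring, where 0 is the deposited 0 and not the median, 5 genes were above it and 5 below. Arrays left out kept the features and probes of the main analysis. A gene has no single value when each probe is tested alone. With 4 arrays per genotype, differences of 0.5 planted in 200 features were recovered in 5% of simulated cases.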
